A study of Mus musculus with 4 samples.

Results

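The E protein genes Tcf3, Tcf4 and Tcf12 and the Id inhibitor genes Id1, Id2 and Id3 were followed in sorted pro-B cells with and without a floxed Tnpo3 gene. These 6 genes were taken by symbol from the raw count table of 24411 gene symbols, and all 6 were found and passed the filter on low counts. RNA was sequenced from bone marrow cells of C57BL/6 mice that were sorted as B220+, CD43+ and HSA+ (CD24). The knockout group held 2 Tnpo3fl/fl mb1Cre mice (numbers 51 and 63), and the control group held 2 Tnpo3+/+ mb1Cre mice (numbers 55 and 69). Both genotypes carried mb1Cre, a Cre recombinase driven from the Cd79a locus, so recombination is restricted to cells that have switched that B-lineage locus on. Tnpo3 encodes transportin 3, which imports serine- and arginine-rich splicing factors into the nucleus. Ages were not given in the sources used here.

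E proteins are basic helix-loop-helix transcription factors. They pair through the helix-loop-helix and bind short DNA sequences called E-boxes through the basic stretch. Tcf3 encodes E2A, which is needed to start and hold the B-cell program together with Ebf1 and Pax5. Tcf12 encodes HEB, a frequent partner of E2A in lymphocyte precursors, and Tcf4 encodes E2-2, the factor that directs plasmacytoid dendritic cell fate. Id proteins have the helix-loop-helix without the basic stretch, so a pair of an Id and an E protein does not bind DNA. Id2 is known for its role in natural killer cells, innate lymphoid cells and conventional dendritic cells, and Id3 for its induction by antigen receptor signalling in lymphocytes.

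The libraries held 40647384 and 30440627 counts in knockout mice 51 and 63, and 32697489 and 26211372 counts in controls 55 and 69. Levels are given as CPM, a gene's count relative to its TMM-scaled library size. Tnpo3 was at 79.7 and 68.8 CPM in the knockouts, against 159 and 148 CPM in the controls, and it fell (log2 fold change of -1.05, edgeR adjusted p of 0.0108; -0.94 and 0.0603 without knockout 63). The labelled cell type was checked with marker genes. The 13 pro-B markers summed to 3592 and 2844 CPM in the knockouts and 10331 and 12082 CPM in the controls, and 10 of 13 fell and 0 rose. The 10 plasmacytoid dendritic cell markers summed to 7602 and 9882 CPM in the knockouts and 1185 and 522 CPM in the controls, and 9 rose and 0 fell. In the knockout libraries the plasmacytoid sum was thus above the pro-B sum, against the label of the sort, and no marker of either list was at 0 in every library of a genotype. Among markers of other cells, 6 of 10 conventional dendritic and 10 of 14 natural killer and innate lymphoid genes rose. So did 3 of 9 tested T cell and 3 of 6 tested early progenitor genes. Flt3 is in both the conventional dendritic and the early progenitor list and rose in each count. By contrast 10 of 11 myeloid, 6 of 7 tested eosinophil, basophil and mast cell, and 6 of 8 tested erythroid and megakaryocyte genes fell. Of the 8 stromal and endothelial genes tested 2 rose and 2 fell, and 1 conventional dendritic gene, Ccr7, fell. Beside these marker counts, 22.2% of all 13507 genes tested were called in edgeR, 11.3% higher and 10.9% lower in the knockout. Limma-voom called 4 of the natural killer and innate lymphoid genes, 6 T cell genes were called without knockout 63 and by DESeq2, and 1 stromal gene was called lower without either knockout or control 55 and 4 without control 69 and by DESeq2. Under the other settings with all libraries, 4 to 8 erythroid and megakaryocyte genes were called lower. The count of eosinophil, basophil and mast cell genes called lower was then 5 to 7. In a sorted population fewer cells of a type and less RNA per cell cannot be told apart.

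**Figure D1:**
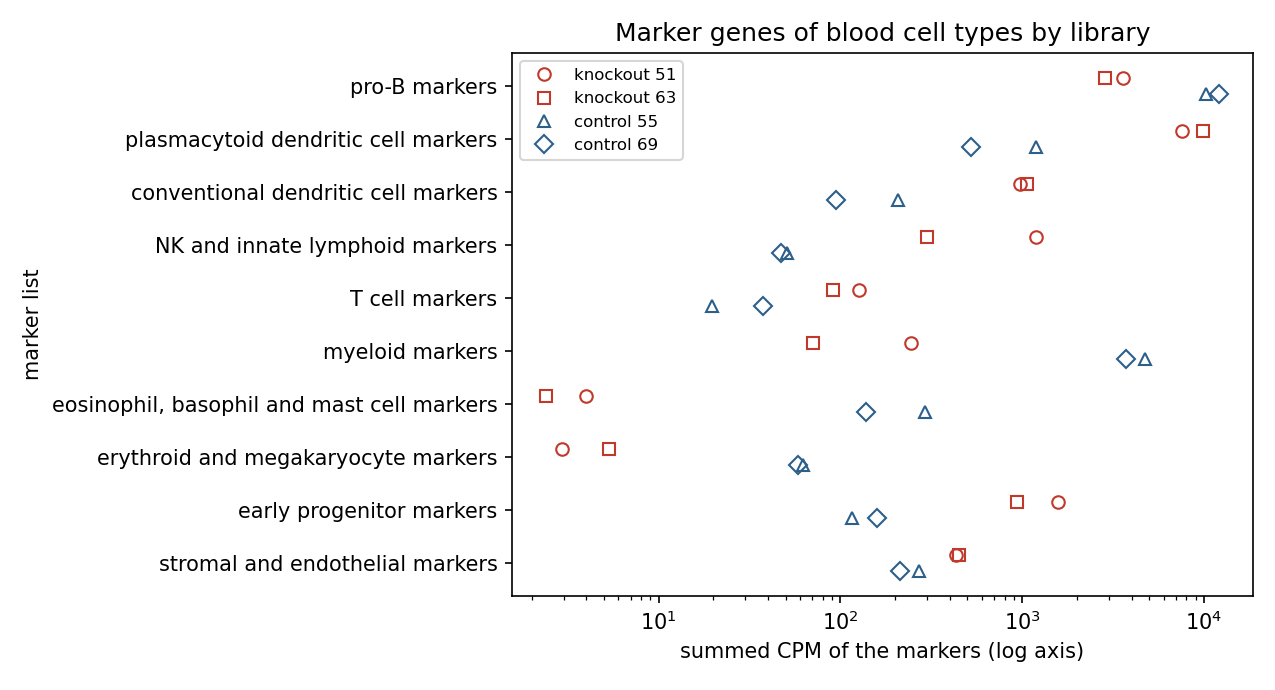
Summed CPM (log axis) of the marker genes of 10 cell types, with 1 symbol per library; knockouts are red and drawn above the blue controls. The plasmacytoid markers sum to 7602 and 9882 CPM in the knockouts, against 1185 and 522 CPM in the controls, and the pro-B markers show the opposite order.

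E-boxes (CANNTG, a pattern that reads the same on both strands) were searched in the 250 bases before the RefSeq transcription start (GRCm38.p6), where 4 of the 6 genes had an entry. They are shown because E proteins bind E-boxes, and Pou2af1 and Irf7, the genes with the lowest p in the lists of genes activated by E2A and by E2-2, are shown for comparison. Capitals mark the E-boxes. Tcf12 had 3 entries, and the most upstream was used. The windows of Id2 and Id3 lie within the annotated spans given for these genes below. The windows are chr10:80433636-80433885, minus strand for Tcf3; chr9:72111820-72112069, minus strand for Tcf12; chr12:25096093-25096342, minus strand for Id2; chr4:136143572-136143821, plus strand for Id3; chr9:51213440-51213689, plus strand for Pou2af1; and chr7:141266425-141266674, minus strand for Irf7.
Tcf3: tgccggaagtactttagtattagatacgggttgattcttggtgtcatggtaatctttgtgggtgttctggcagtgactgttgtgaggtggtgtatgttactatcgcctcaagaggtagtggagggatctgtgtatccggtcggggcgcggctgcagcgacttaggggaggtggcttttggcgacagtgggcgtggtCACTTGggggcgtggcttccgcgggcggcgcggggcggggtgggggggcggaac
Tcf12: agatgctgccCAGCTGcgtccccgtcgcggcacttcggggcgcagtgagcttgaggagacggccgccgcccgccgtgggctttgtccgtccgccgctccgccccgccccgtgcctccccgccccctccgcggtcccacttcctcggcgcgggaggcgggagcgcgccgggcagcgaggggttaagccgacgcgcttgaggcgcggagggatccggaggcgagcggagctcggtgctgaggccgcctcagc
Id2: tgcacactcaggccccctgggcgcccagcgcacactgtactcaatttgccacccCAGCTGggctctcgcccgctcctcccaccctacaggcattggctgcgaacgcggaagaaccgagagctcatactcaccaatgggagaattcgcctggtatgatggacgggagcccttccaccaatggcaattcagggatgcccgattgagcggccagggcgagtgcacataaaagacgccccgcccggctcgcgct
Id3: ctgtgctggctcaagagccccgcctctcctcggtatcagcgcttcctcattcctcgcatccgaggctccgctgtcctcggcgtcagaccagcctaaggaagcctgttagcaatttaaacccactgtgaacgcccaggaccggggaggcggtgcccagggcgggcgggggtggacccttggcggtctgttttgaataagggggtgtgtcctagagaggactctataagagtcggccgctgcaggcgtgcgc
Pou2af1: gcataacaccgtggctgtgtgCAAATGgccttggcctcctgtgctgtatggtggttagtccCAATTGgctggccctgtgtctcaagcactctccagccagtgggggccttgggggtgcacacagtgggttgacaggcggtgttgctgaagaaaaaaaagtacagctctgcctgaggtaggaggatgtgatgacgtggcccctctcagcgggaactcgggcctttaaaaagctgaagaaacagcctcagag
Irf7: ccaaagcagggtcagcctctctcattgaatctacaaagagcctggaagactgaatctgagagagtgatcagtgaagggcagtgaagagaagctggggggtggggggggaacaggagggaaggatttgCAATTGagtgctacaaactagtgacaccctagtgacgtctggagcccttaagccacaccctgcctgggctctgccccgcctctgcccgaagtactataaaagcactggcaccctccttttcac

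The windows of Tcf3, Tcf12 and Id2 held 1 E-box each, and that of Id3 held 0. The box was CAGCTG in Tcf12 and Id2 and CACTTG in Tcf3. The Pou2af1 window held 2 and the Irf7 window 1. A CANNTG match was present in 66.2% of all 32851 windows of this length, and CAGCTG in 13.0%. All windows here count every entry of a gene. These matches describe letters and are not evidence of binding.

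The E protein genes moved in different directions. Tcf3 fell and Tcf4 rose in the knockout, and Tcf12 did not pass the test. Tested across the whole table with edgeR's quasi-likelihood test, 3 of the 6 genes passed a Benjamini-Hochberg adjusted p of 0.05 (Tcf3, Tcf4 and Id3), 1 higher and 2 lower. Over all 13507 genes tested, 22.2% passed in either direction, 11.3% higher and 10.9% lower in the knockout.

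Tcf3 (chromosome 10, 80409514 to 80433647, GRCm38, minus strand) was at 424 and 287 CPM in knockout mice 51 and 63, and at 992 and 1229 CPM in controls 55 and 69. Both knockouts lay far below both controls. The knockout mean was 355 ± 97.0 CPM and the control mean 1110.3 ± 168 CPM (SD, n = 2 each). The log2 fold change was -1.64 ± 0.26 (SE), with an edgeR adjusted p of 0.0149 and a lower value in 4 of 4 pairings of a knockout with a control. With 1 library left out it ranged from -1.95 to -1.39, and the gene passed each time. Counts per gene do not separate the splice forms of Tcf3 that give the E2A isoforms.

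Tcf4 (chromosome 18, 69343356 to 69689079, plus strand) was at 758 and 1018 CPM in knockout mice 51 and 63, against 257 and 218 CPM in controls 55 and 69. The lowest knockout was well above the highest control. The means were 888 ± 184 CPM in knockouts and 238 ± 27.1 CPM in controls, a log2 fold change of 1.90 ± 0.22 with an edgeR adjusted p of 0.00782. The value ranged from 1.68 to 2.10 with 1 library left out and passed each time. The annotation gives Tcf4 62 transcripts, which the gene counts do not separate.

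Tcf12 (chromosome 9, 71842688 to 72111871, minus strand) was at 213 and 291 CPM in knockout mice 51 and 63, and at 328 and 228 CPM in controls 55 and 69. The genotypes overlapped. The log2 fold change was -0.14 ± 0.25, with an edgeR adjusted p of 0.715 and a 95% interval of -0.76 to 0.48. The interval includes no change, and it ends at a fall or a rise smaller than the change of Tcf3 or Tcf4. Its sign depended on single mice, with 0.07 without knockout 51 and 0.18 without control 55.

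**Figure D2:**
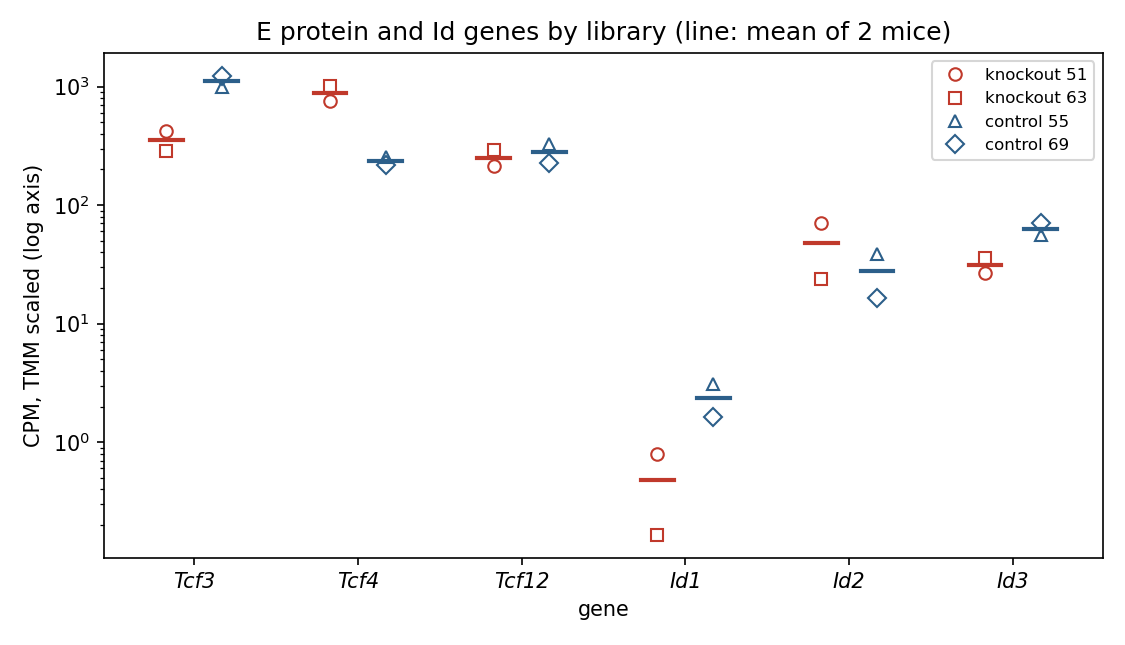
CPM of each gene in each library on a log axis, knockouts in red to the left of controls in blue; the short lines are means of 2 mice. Tcf3, Tcf4, Id1 and Id3 separate the genotypes, whereas Tcf12 and Id2 overlap.

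Of the 3 Id genes, 1 passed the test, Id3, which was lower in the knockout. Id3 (chromosome 4, 136143497 to 136145755, plus strand) was at 26.7 and 35.8 CPM in knockout mice 51 and 63, against 55.6 and 71.2 CPM in controls 55 and 69. The genotypes did not overlap, and Id3 fell with a log2 fold change of -1.02 ± 0.22 and an edgeR adjusted p of 0.0310. Without knockout 51 the log2 fold change was -0.82 (edgeR adjusted p of 0.125), and without knockout 63 it was -1.24 (0.0535), so the call rested on having both knockout libraries.

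Id2 (chromosome 12, 25093799 to 25097140, minus strand) was at 71.2 and 23.8 CPM in knockout mice 51 and 63, and at 39.0 and 16.4 CPM in controls 55 and 69. The highest and the second lowest values were both knockouts, so the genotypes overlapped. Knockout 51 held 2.99 times the level of knockout 63, and control 55 held 2.38 times the level of control 69. The log2 fold change was 0.78 ± 0.62, with an edgeR adjusted p of 0.407 and a 95% interval of -0.78 to 2.33, and it was -0.22 without knockout 51. The 14 natural killer and innate lymphoid markers summed to 1196 and 300.5 CPM in knockout mice 51 and 63, and to 51.0 and 46.8 CPM in controls 55 and 69. The 10 conventional dendritic markers summed to 974 and 1066 CPM in the knockouts and 208 and 94.4 CPM in the controls. In the knockouts Id2 and the natural killer and innate lymphoid markers were thus both higher in mouse 51, while the controls differed in Id2 and hardly in those markers; the part of these cells in the Id2 level was not tested.

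Id1 (chromosome 2, 152736251 to 152737410, plus strand) was the lowest of the 6 genes in every library, in CPM and per length. It had 32 and 5 counts in knockouts 51 and 63, and 101 and 43 counts in controls 55 and 69. These correspond to 0.793 and 0.166 CPM in the knockouts, against 3.09 and 1.62 CPM in the controls, with exact 95% Poisson intervals of 0.542 to 1.12 and 0.0539 to 0.387 CPM in the knockouts and 2.51 to 3.75 and 1.17 to 2.18 CPM in the controls. The intervals cover counting error only. The genotypes did not overlap, but the knockouts differed 4.78-fold between themselves, and the log2 fold change of -2.25 ± 0.80 did not pass in edgeR (adjusted p of 0.103). DESeq2 gave -2.27 with an adjusted p of 0.0458. The related gene Id4, which is not among the 6, had 1 and 0 counts in knockouts 51 and 63 and 3 and 1 counts in controls 55 and 69, too few to test.

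For 4 of the 6 genes (Tcf3, Tcf4, Id1 and Id3) the CPM ranges of the genotypes did not overlap, and this held for 67.5% of all genes tested. Mouse sex, read from Xist and the Y-linked gene Ddx3y, was balanced, with female mice 63 and 55 and male mice 51 and 69. Between the females the log2 ratio of knockout to control was -1.79 for Tcf3, 1.99 for Tcf4 and -0.63 for Id3. Between the males it was -1.54 for Tcf3, 1.79 for Tcf4 and -1.41 for Id3. The direction of these 3 genes was the same in both pairs, and that of Id2 was not (-0.71 between females and 2.12 between males).

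**Figure D3:**
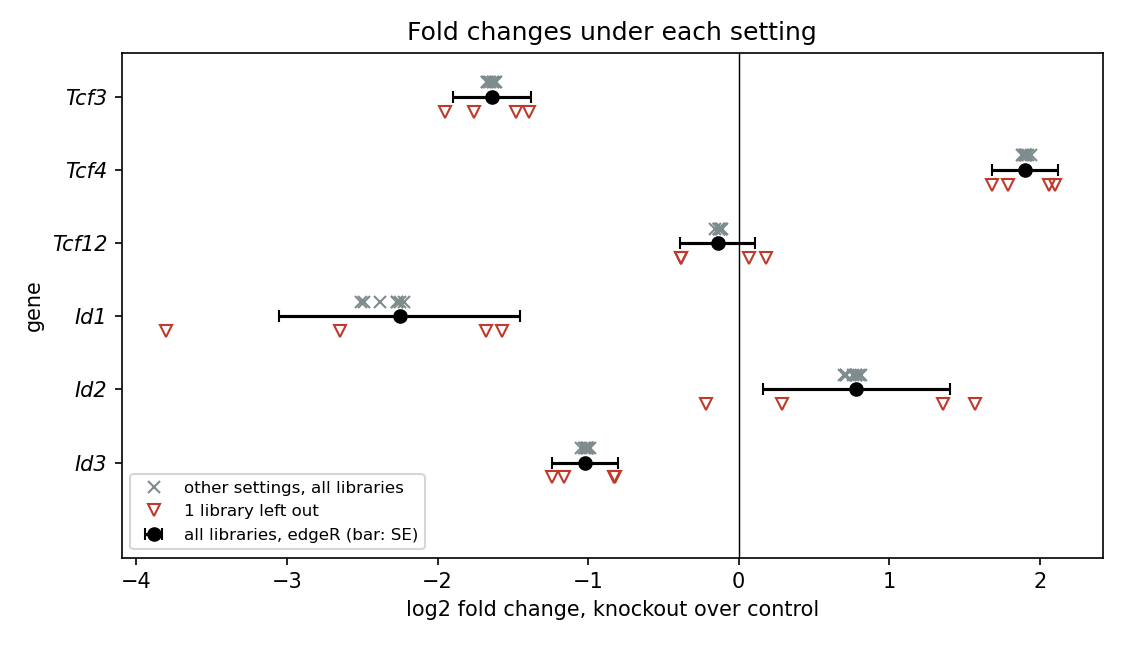
Log2 fold change of each gene, knockout over control, with all libraries (black, bar SE), under other settings (grey crosses) and with 1 library left out (red triangles). The grey crosses stay close to the black points; the triangles of Tcf12 and Id2 lie on both sides of 0.

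Levels of different genes were compared per kilobase of merged exons. On this scale (CPM per kilobase) Tcf3 was at 105 and 71.0 in knockouts 51 and 63 and at 245 and 304 in controls 55 and 69. Tcf4 was at 27.7 and 37.2 in the knockouts, against 9.38 and 7.98 in the controls, and Tcf12 at 13.7 and 18.8, against 21.1 and 14.7. Tcf3 thus ranked first among the E protein genes in every library, and Tcf4 and Tcf12 changed places, with Tcf4 above Tcf12 in both knockouts and below it in both controls. The sum over the 3 genes was 137 ± 13.7 in knockouts and 301 ± 36.0 in controls, a log2 ratio of -1.14. Tcf4 made up 18.9% and 29.3% of this sum in knockouts 51 and 63, and 3.40% and 2.44% in controls 55 and 69.

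The length given to Tcf4 bears on these shares, because its merged exons span 27382 bases and its longest transcript 8577 bases. With the longest transcript of each gene, Tcf4 made up 33.2% and 45.3% of the sum in knockouts 51 and 63, and 7.16% and 5.33% in controls 55 and 69. Its level per length was then above that of Tcf3 in knockout 63 (119 against 97.1) and below it in knockout 51 (88.4 against 144). The log2 ratio of the E protein sum between knockout and control was then -0.76. The ratio of Tcf4 to Tcf3 was 12.2 times as high in knockouts as in controls with either length. That ratio describes a pair of genes that had each passed, and was not tested itself.

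**Figure D4:**
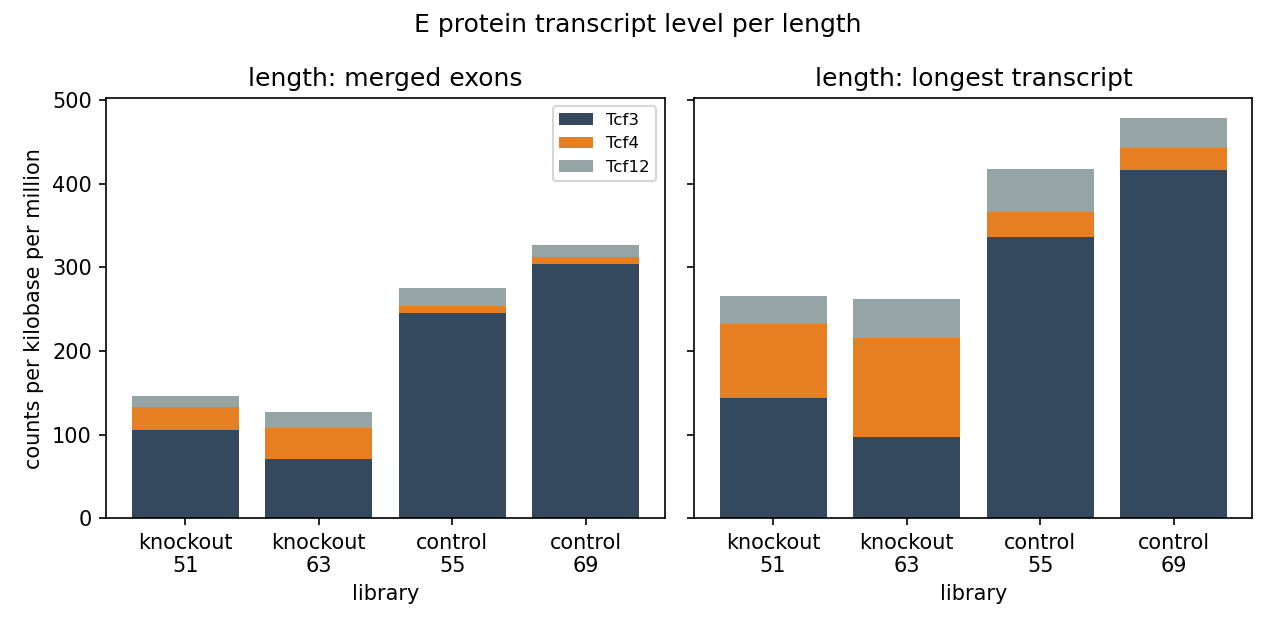
Stacked levels (CPM per kilobase) of Tcf3, Tcf4 and Tcf12 in each library, knockouts to the left of controls, with gene length from merged exons or from the longest transcript. The sum is lower in both knockouts under both lengths, and the Tcf4 part is larger there.

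Ordered by mean level per kilobase of merged exons, the 6 genes ran Tcf3 (87.9 ± 24.0), Tcf4 (32.4 ± 6.73), Id2 (19.5 ± 13.7), Id3 (17.5 ± 3.60), Tcf12 (16.2 ± 3.58) and Id1 (0.413 ± 0.382) in knockouts. In controls they ran Tcf3 (275 ± 41.6), Id3 (35.4 ± 6.16), Tcf12 (17.9 ± 4.55), Id2 (11.4 ± 6.55), Tcf4 (8.68 ± 0.989) and Id1 (2.03 ± 0.897; SD, n = 2 each). Neighbours whose library values overlapped were Tcf4 with Id2, Id2 with Id3 and Id3 with Tcf12 in knockouts, and Tcf12 with Id2 and Id2 with Tcf4 in controls. The order depended on the length used. Per kilobase of the longest transcript it was Tcf3 (120.4 ± 32.9), Tcf4 (104 ± 21.5), Tcf12 (40.0 ± 8.81), Id3 (24.5 ± 5.04), Id2 (24.1 ± 17) and Id1 in knockouts. In controls it was then Tcf3 (376 ± 56.9), Id3 (49.6 ± 8.63), Tcf12 (44.1 ± 11.2), Tcf4 (27.7 ± 3.16), Id2 (14.1 ± 8.11) and Id1. On that scale the neighbours that overlapped were Tcf3 with Tcf4 and Id3 with Id2 in knockouts, and Id3 with Tcf12 in controls.

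Among the Id genes, per kilobase of merged exons, Id3 was at 14.9 and 20.0 in knockouts 51 and 63 and at 31.0 and 39.7 in controls 55 and 69. Id2 was at 29.2 and 9.76 in the knockouts, against 16.0 and 6.72 in the controls. Id3 therefore led in 3 of the 4 libraries, and Id2 led in knockout 51. The Id sum was 37.3 ± 10.5 in knockouts and 48.8 ± 1.29 in controls. Set against the E protein sum, the Id sum came to 0.306 and 0.236 in knockouts 51 and 63, and to 0.180 and 0.146 in controls 55 and 69. With the longest transcripts these ratios were 0.217 and 0.154 in the knockouts, and 0.158 and 0.137 in the controls, and the genotypes then overlapped. The separation of the genotypes in this ratio thus depended on the gene length.

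The Tcf3 level was also set beside the pro-B markers of the same library, a comparison chosen after the values were seen. Tcf3 CPM came to 11.8% and 10.1% of the summed pro-B marker CPM in knockout mice 51 and 63, and to 9.60% and 10.2% in controls 55 and 69. Tcf3 thus stood in nearly the same proportion to the sum of the pro-B markers in all 4 libraries. This did not hold for each marker, as their log2 fold changes ran from -3.73 to -0.47, against -1.64 for Tcf3. Tcf4 CPM came to 9.97% and 10.3% of the summed plasmacytoid markers in the knockouts, and to 21.7% and 41.8% in the controls. Tcf4 thus differed less between genotypes than that sum did. The single plasmacytoid markers had log2 fold changes from 1.82 to 4.41, against 1.90 for Tcf4. What part the mix of sorted cells had in the levels of Tcf3 and Tcf4 was not tested.

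Genes that E2A is known to activate were mostly lower, and most of those that fell were pro-B markers. Of 23 listed genes, all tested, 14 fell, 2 rose and 7 did not pass in edgeR (69.6% called, against 22.2% of all genes). Over all genes tested, 10.9% fell and 11.3% rose. The median log2 fold change of the list was -1.55, against -0.02 over all genes tested. The list holds all 13 pro-B markers, 10 of which fell, so the marker and list counts are not independent. Outside the markers, the listed genes went both ways. Pou2af1, an octamer coactivator, was at 84.1 and 83.3 CPM in knockout mice 51 and 63 and at 1224 and 1004 CPM in controls 55 and 69. Ebf1, the partner of E2A in starting the B lineage, averaged 147 ± 13.5 CPM in knockouts and 702 ± 77.2 CPM in controls, a log2 fold change of -2.26 ± 0.18 (edgeR adjusted p of 0.00497). Vpreb3 and the receptor signalling gene Cd79a fell with log2 fold changes of -2.60 and -1.81. The 2 that rose, Notch1 and Ptcra, belong to the T-cell side of the E2A targets. Ptcra, the pre-T-cell receptor chain, was at 1.14 and 1.89 CPM in the knockouts, with 0 and 3 counts in controls 55 and 69. Without knockout 63 only 1 gene of this list was called higher. The surrogate light chain genes Igll1 and Vpreb1 did not pass, with fold changes of -0.88 and -1.47 on the log2 scale, and their controls 55 and 69 were far apart (326 and 989.6 CPM for Igll1).

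Genes of the plasmacytoid program placed downstream of E2-2 were mostly higher. Of 20 listed genes, all tested, 15 rose, 0 fell and 5 did not pass (75% called, against 22.2% of all genes). Over all genes tested, 11.3% rose and 10.9% fell. The list had a median log2 fold change of 3.48. The list holds all 10 plasmacytoid markers above, so the marker and list counts are not independent. With all libraries 1 gene of the list was lower at an unadjusted edgeR p under 0.05. Other settings with all libraries called 0 to 1 lower, with 0 in DESeq2. Irf7, a driver of type I interferon genes, was at 599 and 433 CPM in knockout mice 51 and 63, against 43.9 and 44.5 CPM in controls 55 and 69. Bst2, Tlr7 and the phosphatase gene Ptprs rose with log2 fold changes of 3.77, 3.41 and 1.87. The members that did not pass were Tlr9, Il7r, Zeb2, Spib and Atp1b1. Spib, an ETS factor of B cells and plasmacytoid cells alike, was at 633 and 949.6 CPM in the knockouts, against 1517 and 691 CPM in the controls.

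**Figure D5:**
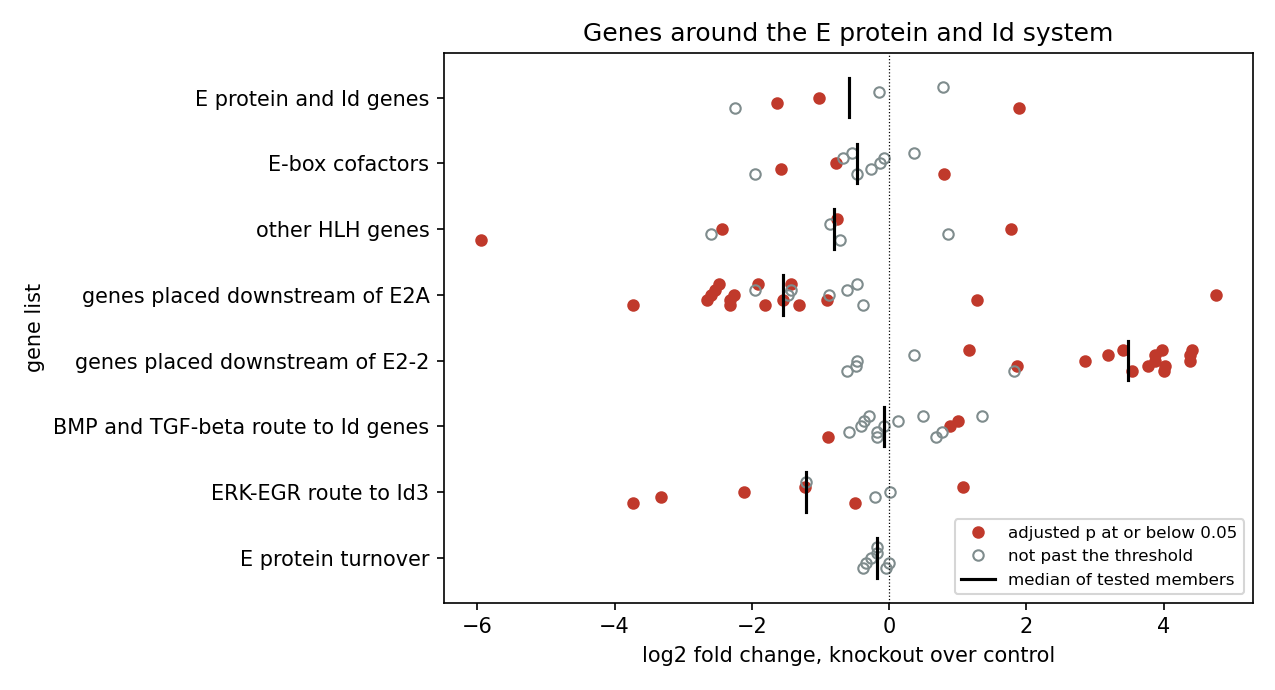
Log2 fold change, knockout over control, of each tested gene by list; red points passed an adjusted p of 0.05, open points did not, and black lines are medians. The genes placed downstream of E2-2 have a median of 3.48 and those placed downstream of E2A one of -1.55.

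Among cofactors of E proteins the share called was near that of all genes. Of 11 tested, 1 rose, 2 fell and 8 did not pass (27.3% called, against 22.2% of all genes), with a median of -0.47. Lmo2, a bridging protein in complexes of E proteins, was at 101 and 100.3 CPM in knockout mice 51 and 63 and at 57.2 and 58.6 CPM in controls 55 and 69. Its relative Lmo4 fell (log2 fold change of -1.57), as did the acetyltransferase gene Kat2b (-0.78). With 1 library left out some calls were lost at a similar size of change. Lmo2, at 0.80 on the log2 scale with all libraries, did not pass without knockout 51 (0.79) or knockout 63 (0.81). Kat2b did not pass without knockout 51 (-0.86) or knockout 63 (-0.70), nor Lmo4 without knockout 51 (-1.30). In the whole list 0 genes were called higher without either knockout and 2 without control 69, and 1 was called lower without knockout 51. The corepressor gene Cbfa2t3, whose product binds E2-2, was at 152 and 182 CPM in the knockouts and 197 and 154 CPM in the controls, with an edgeR adjusted p of 0.803.

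Of 22 other helix-loop-helix genes 8 passed the filter on low counts. Of these 8, 1 rose, 3 fell and 4 did not pass the test, against 11.3% of all genes higher and 10.9% lower. Bhlha15, a factor of secretory cells, rose (log2 fold change of 1.77 ± 0.44). The repressor genes Heyl and Hey1, known to respond to Notch, fell, with Heyl at 0.793 and 0.631 CPM in knockout mice 51 and 63 and at 27.7 and 61.7 CPM in controls 55 and 69. Lyl1, an E protein partner in blood progenitors, fell by 0.76 on the log2 scale, at an edgeR adjusted p of 0.0434. The call of Hey1, at -2.43 with all libraries, was lost with any 1 library left out, at -2.76 to -1.96. Bhlha15 did not pass without knockout 51 (1.91) or knockout 63 (1.61). Lyl1 did not pass without knockout 51 (-0.87), knockout 63 (-0.65) or control 69 (-0.52). In the whole list 0 genes were called higher without either knockout and 2 without control 55, and 1 was called lower without knockout 51.

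On the routes that induce Id genes, EGR factor genes were lower. Id3 was lower too, and whether the EGR genes had a part in its level was not tested. Of 9 listed genes of the ERK-EGR route, 5 fell and 1 rose (66.7% called, against 22.2% of all genes), with a median of -1.21. Over all genes tested, 10.9% fell and 11.3% rose. Egr1, an immediate-early factor that activates Id3 downstream of antigen receptors, was at 16.1 and 21.0 CPM in knockout mice 51 and 63 and at 179 and 190.3 CPM in controls 55 and 69. Its log2 fold change was -3.32 ± 0.18 (edgeR adjusted p of 0.00431). Egr3 and Elk4 also fell (-3.73 and -1.23), and the EGR corepressor gene Nab1 rose (1.07). Without knockout 63 Elk4 (-1.12) and Nab1 (0.95) did not pass. Without knockout 63 there were 2 lower calls and 0 higher, and without control 55 there were 3 lower calls. The 11 myeloid markers summed to 245 and 70.4 CPM in the knockouts and 4711 and 3707 CPM in the controls; their part in the level of the EGR genes was not tested. Of 15 tested genes of the BMP and TGF-beta route, 2 rose, 1 fell and 12 did not pass, with a median of -0.07. The share called was 20.0%, near the 22.2% of all genes. The receptor gene Tgfbr1 rose, at 119 and 179 CPM in the knockouts and 85.0 and 63.7 CPM in the controls. The BMP receptor gene Bmpr2 also rose (0.89), and Tgfbr2 fell (-0.89). With 1 library left out, Tgfbr2 did not pass without knockout 51 (-0.90) or knockout 63 (-0.87), nor Bmpr2 without knockout 51 (1.04), knockout 63 (0.74) or control 55 (0.90), nor Tgfbr1 without knockout 63 (0.68) or control 69 (0.81). Over the route, 0 genes were called in either direction without knockout 63, and 1 higher and 0 lower without knockout 51; without control 55 there were 1 higher and 3 lower, and without control 69 there were 4 higher. Of 7 tested genes of E protein ubiquitination and turnover, 0 passed in edgeR, in either direction, with log2 fold changes between -0.38 and 0.00; 0 reached an unadjusted p of 0.05, and DESeq2 and limma-voom also called 0.

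The genes nearest to each member in their profile over the 4 libraries were listed by the root mean square difference of centred log2 CPM, where a smaller value is a closer profile. Only genes with a mean log2 CPM of at least 3 were searched. Symbols that start with Gm and a digit or end in Rik were left out. Nearest to Tcf3 were Sh3bp5 (0.0289), the B-lineage factor gene Pax5 (0.0611) and the mitotic kinesin gene Kif18b (0.0655). Nearest to Tcf4 were the interleukin-6 receptor gene Il6ra (0.0540), Net1 (0.0615) and the calcium channel gene Itpr1 (0.0645). Nearest to Id3 were Agpat9 (0.0400), Cav2 (0.0522) and Krba1 (0.0587). For Id2 none of the genes searched came so close, with Rinl (0.362), Pim2 (0.366) and Ms4a4c (0.406) as the nearest. For Tcf12 the nearest were Ccdc134 (0.00711), Cd86 (0.0162) and Ptgr2 (0.0215), and for Id1 Neurl3 (0.0749), Gadd45g (0.288) and Gpsm2 (0.294).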

How the data were processed

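The deposited files were raw counts per gene symbol and a table of normalized signal, made by the authors as the raw count multiplied by a constant for the library. Programs named per the submitters' processing notes are featureCounts, STAR 2.7.4a, DESeq2, Subread 2.0.0, deepTools 3.3.2 and SAMtools 1.10; the builds are GRCm38 and mm10. How reads with several alignments were treated, the strand setting and the annotation are not given in the sources used. The labels describe a low-input library kit and mention no molecular identifiers.

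Genotypes were compared with edgeR 4.0.16 under R 4.3.3: filterByExpr (13507 genes kept), TMM scaling, glmQLFit and glmQLFTest over all 4 libraries, with Benjamini-Hochberg adjustment over all genes. Each library came from its own mouse, and the replicates differed by more than counting noise (chi-square per gene of 51.9 for knockouts and 71.7 for controls). Standard errors are the fold change over the root of F. Levels per length used GENCODE M21 exons on GRCm38. No exon of the 6 genes shares bases with another annotated gene. Motifs were searched in RefSeq promoter entries. Alternatives were DESeq2 1.42.0, limma-voom (limma 3.58.1), limma on log2 of the deposited normalized signal plus 1, other scalings and filters, sex as a block and each library left out. The procedure was run on simulated data in which all genes shared the same dispersion (0.063). Spread between replicates differed by gene in these libraries, so the simulation does not give the error rate of the calls here.

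The 6 genes, the lists and the tests were chosen with earlier results of these data known. Named genes are all 6 members, Tnpo3, Ddx3y and Xist as label checks, up to 4 genes with the lowest adjusted p per list and the 3 nearest profiles per member; Notch1, Ptcra, Igll1, Vpreb1, Spib, Cbfa2t3, Id4 and the members listed as not passing were chosen after their values were seen.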

Additional observations from a re-analysis of the deposited data

Results flagged for a closer look

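Id2 differed in opposite directions in the pairs of mice of the same sex. The log2 ratio of knockout to control was 2.12 between the males (mice 51 and 69) and -0.71 between the females (mice 63 and 55). Each value compares 1 mouse with 1 mouse, and the difference between the sexes was not tested. With sex as a block the log2 fold change of Id2 was 0.70 (edgeR adjusted p of 0.464).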

How the results depend on the processing

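Tcf3 and Tcf4 kept their direction and their call under all 12 alternatives, with log2 fold changes from -1.95 to -1.39 and from 1.68 to 2.10. Id3 ranged from -1.24 to -0.82 with 1 library left out and passed in 2 of these 4 fits, and in all 8 fits with every library. Tcf12 ranged from -0.38 to 0.18 and Id2 from -0.22 to 1.57 with 1 library left out. Tcf12 was at 0.07 without knockout 51 and 0.18 without control 55, and Id2 at -0.22 without knockout 51, each opposite to the value with all libraries; the cause was not tested. Id1 ranged from -3.80 to -1.57 with 1 library left out. It passed with DESeq2 (-2.27) and in no other of 11 fits; the stricter filter left it out. Against 2992 genes called, the number ranged with 1 library left out from 1277 (without knockout 63) to 3229 (without control 69), with 1616 without knockout 51, and under the other settings from 2611 (stricter filter) to 4323 (sex as a block). With the longest transcript as gene length, the log2 ratio of the E protein sum was -0.76, against -1.14, and that of the Id to E protein ratio 0.33, against 0.73. These moves come from the lengths themselves. With 1 library left out, the E protein sum ranged from -1.26 to -1.01, the Id sum from -0.71 to -0.12, the Id to E protein ratio from 0.53 to 0.91 and the Tcf4 to Tcf3 ratio from 3.03 to 4.02, all as log2 ratios. Of 53 other named genes, 0 reversed over 632 refits and 35 refits lost the call, 31 of them with a library left out. These 53 are Tnpo3 and the genes with the lowest adjusted p in each list, all of which had passed with all libraries. A reversal was therefore unlikely in advance. Named genes that had not passed are not among them. Where 1 library of a genotype was left, its spread was taken from the other genotype. Pairing by replicate number was not possible because no mouse number occurs in both genotypes; the block by sex sets 1 knockout beside 1 control of each sex and leaves 1 residual degree of freedom. Depth limits Id1 most, at 5 counts in knockout 63.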

Other observations

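E-boxes of the kind CAGGTG or CACCTG (the same box read on either strand) were present in the 250 bases before the start of 7 of 20 genes with an entry in the list placed downstream of E2A (35.0%) and of 5 of 17 in the list placed downstream of E2-2 (29.4%), against 17.2% of all 32851 windows. The box CAGCTG was present in 4 of 20 and 0 of 17, against 13.0% of all windows. Each listed gene was read at its most upstream entry, whereas all windows count every entry. These shares were not tested. Of the 4 E protein and Id genes with an entry, 0 held CAGGTG or CACCTG.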
